A study of Mus musculus with 12 samples.

Results

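The enzymes that start, extend and cap mucin-type O-linked sugars, together with the sialyltransferases that cap sugars of every kind, were followed across 12 mammary tumours of mice. The genes were chosen by name alone, with no measured value in the rule: the sialyltransferases St3gal, St6gal, St6galnac and St8sia, the polypeptide GalNAc transferases Galnt and Galntl, the core 1 synthase C1galt1 with its chaperone C1galt1c1, and Gcnt1 to Gcnt4. This gave 45 genes of the 56860 in the deposited table, and 41 of them passed the filter on low counts. The other 4, Galnt13, Galntl5, Gcnt3 and St8sia3, lay near 0, with FPKM (counts per kilobase of gene length per 1000000 counts of the library) of at most 0.0182 in any tumour. Although the naming rule used no value, the members were chosen with earlier results of these data known. The group is therefore not an unbiased set. Its shares, given below beside those of all genes, are descriptions only.

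Mucin-type O-glycosylation begins in the Golgi when a GalNAc transferase attaches N-acetylgalactosamine to a serine or threonine, which leaves the Tn antigen. C1galt1 adds galactose to give core 1, the T antigen, Gcnt enzymes branch it to core 2, and sialyltransferases end the chain with sialic acid, a charged sugar read by Siglecs and, within larger structures, by selectins. In human breast carcinomas, short and sialylated O-glycans on the mucin MUC1 are a long-known feature.

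The tumours were primary mammary tumours of mice carrying MMTV-PyMT, in which the mouse mammary tumour virus promoter drives the polyoma middle T oncogene, and all were taken at 4.5 months. C3_KO tumours came from MMTV-Cre;C3Tdt:MMTV-PyMT mice, bred for loss of complement component C3. S1pr1_KO tumours came from MMTV-Cre;S1pr1fl/fl; MMTV-PyMT mice, bred for loss of the sphingosine-1-phosphate receptor S1pr1. WT tumours carried MMTV-Cre and MMTV-PyMT per the design text, while their strain label names MMTV-PyMT alone. Each genotype had 4 libraries of total RNA. The MMTV promoter is active mainly in mammary epithelium, so the other cells of a knockout tumour can keep the targeted gene. Whether each tumour is from its own mouse is not in the labels, so a p-value here reflects the spread among samples, part of which may be technical. If tumours shared a mouse they would not be independent, and a p-value could be too small for a difference between genotypes.

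Column totals were, with M for 1000000 counts, 237.1 to 424.6 M in C3_KO, 230.4 to 380.3 M in S1pr1_KO and 327.1 to 484.0 M in WT. The targeted genes overlapped between genotypes, with C3 at 41.6 to 75.1 CPM (counts per 1000000, scaled by library) in C3_KO and 43.3 to 182 CPM in WT, and S1pr1 at 2.59 to 7.43 CPM in S1pr1_KO and 2.88 to 8.02 CPM in WT. Markers of luminal epithelium had no gene at 0 in any library. Some libraries stood apart in markers of other cells. The 9 salivary gland markers summed to 154566 CPM in S1pr1_KO replicate 1 and 5016 CPM in S1pr1_KO replicate 4, against 9.15 to 213 CPM in the other 10 libraries. The 7 milk protein genes summed to 87602 CPM in C3_KO replicate 3, against 1286 to 5946 CPM elsewhere. B cell markers summed to 154 and 84.1 CPM in S1pr1_KO replicates 1 and 2, against 1.45 to 14.0 CPM elsewhere, and adipocyte markers to 293 and 331 CPM in the same libraries, against 4.68 to 90.5 CPM elsewhere. Total RNA of whole tumours cannot tell fewer cells of a type from less RNA per cell.

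Every step of the pathway was present in every genotype, carried by a few enzymes of each family. On the FPKM scale, which allows genes to be compared, 27 of the 45 genes averaged at least 1 FPKM over the 12 tumours. Galnt2 was the highest at 29.8 FPKM, followed by Galnt1 at 18.1 and Galnt3 at 17.7 FPKM, all GalNAc transferases that begin chains. C1galt1c1, the chaperone without which C1galt1 is not folded, averaged 10.1 FPKM. The sialyltransferases lay close together below these, with St3gal5 at 9.38, St3gal4 at 9.17, St6galnac6 at 8.83, St3gal1 at 8.26, St6galnac4 at 8.14 and St6gal1 at 7.96 FPKM. The ranges of these 6 sialyltransferases over the tumours overlapped, so their order is a description. By family, the mean reached 1 FPKM for 12 of 19 GalNAc transferases, 4 of 6 core 1 and core 2 genes, 6 of 6 St3gal genes, 1 of 2 St6gal genes, 3 of 6 St6galnac genes and 1 of 6 St8sia genes. The plot of levels by family shows this spread between genes.

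**Figure D1:**
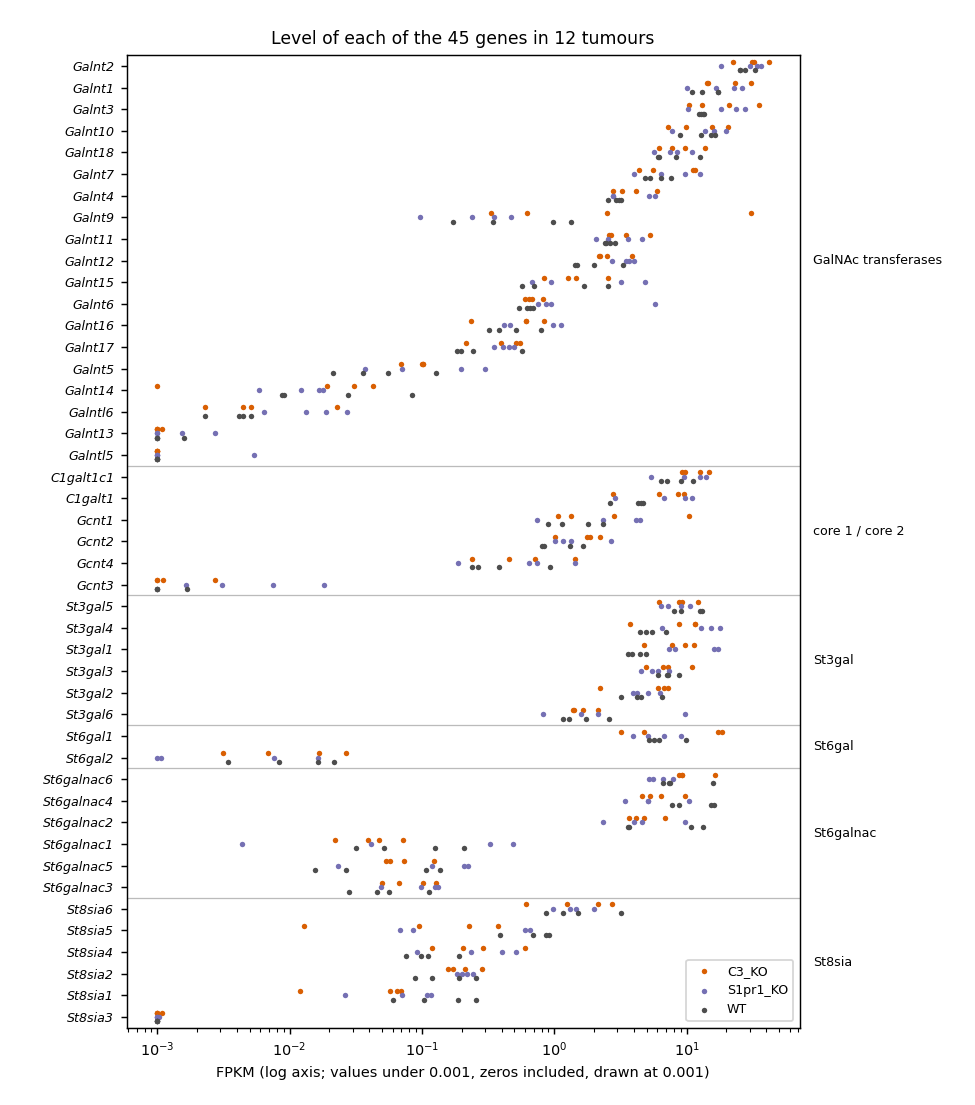
FPKM on a log axis for each of the 45 genes, ordered by family and mean level, with 1 point for each of the 12 tumours (C3_KO, S1pr1_KO and WT, 4 each). Galnt2 is the highest, all 6 St3gal genes average at least 1 FPKM, and 4 genes lie near 0.

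Over 41 genes tested, edgeR with Benjamini-Hochberg adjustment over all 30660 genes called none in any comparison, and it called 0% of all genes as well. At an unadjusted p under 0.05, 6 of the 41 genes stood in C3_KO against WT, 3 higher and 3 lower, or 14.6%, beside 6.23% of all genes tested. In S1pr1_KO against WT there were 8, 5 higher and 3 lower, or 19.5%, beside 15.5% of all genes. In S1pr1_KO against C3_KO there were 4, 2 higher and 2 lower, or 9.76%, beside 3.4% of all genes. Groups did not overlap for 0 of the 41 in C3_KO against WT, beside 3.04% of all genes. They did not overlap for 3 in S1pr1_KO against WT, St3gal1 and Galntl6 as higher and St6galnac6 as lower, or 7.32%, beside 7.58% of all genes, so that this share was near the background. In S1pr1_KO against C3_KO it was 1, St6galnac6 as lower, or 2.44%, beside 1.31%. The median log2 fold change of the 41 was 0.23 in C3_KO against WT, beside 0.05 for all genes, and 27 of the 41 were positive. It was 0.21 in S1pr1_KO against WT, beside 0.03, with 25 positive, but -0.080 without S1pr1_KO replicates 1 and 2 and 0.0485 without the 3 libraries with many milk or salivary transcripts. It was -0.04 in S1pr1_KO against C3_KO, beside -0.03, with 20 positive. Both comparisons with WT use the same 4 WT tumours, so their values stand side by side and do not count as separate evidence.

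Other tools called more. DESeq2 called 84 genes in C3_KO against WT, none of them among the 41, and 901 in S1pr1_KO against WT, among them St3gal1 as higher. In S1pr1_KO against C3_KO DESeq2 called 121 genes, among them Galnt9 as lower. DESeq2 was run on every gene with a count in any tumour, a larger set than the 30660. Its numbers of calls are therefore not shares of the 30660. Limma-voom with quality weights called 5 genes in C3_KO against WT and none in S1pr1_KO against C3_KO, and none of the 41 in either. In S1pr1_KO against WT it called 7828 of the 30660 genes tested. Of the 41, it called 5 as higher, C1galt1, Galntl6, St3gal1, St3gal4 and St8sia4. It called 3 as lower, St3gal5, St6galnac4 and St6galnac6. Calls were common over all genes with this tool, so they do not set the 41 apart.

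**Figure D2:**
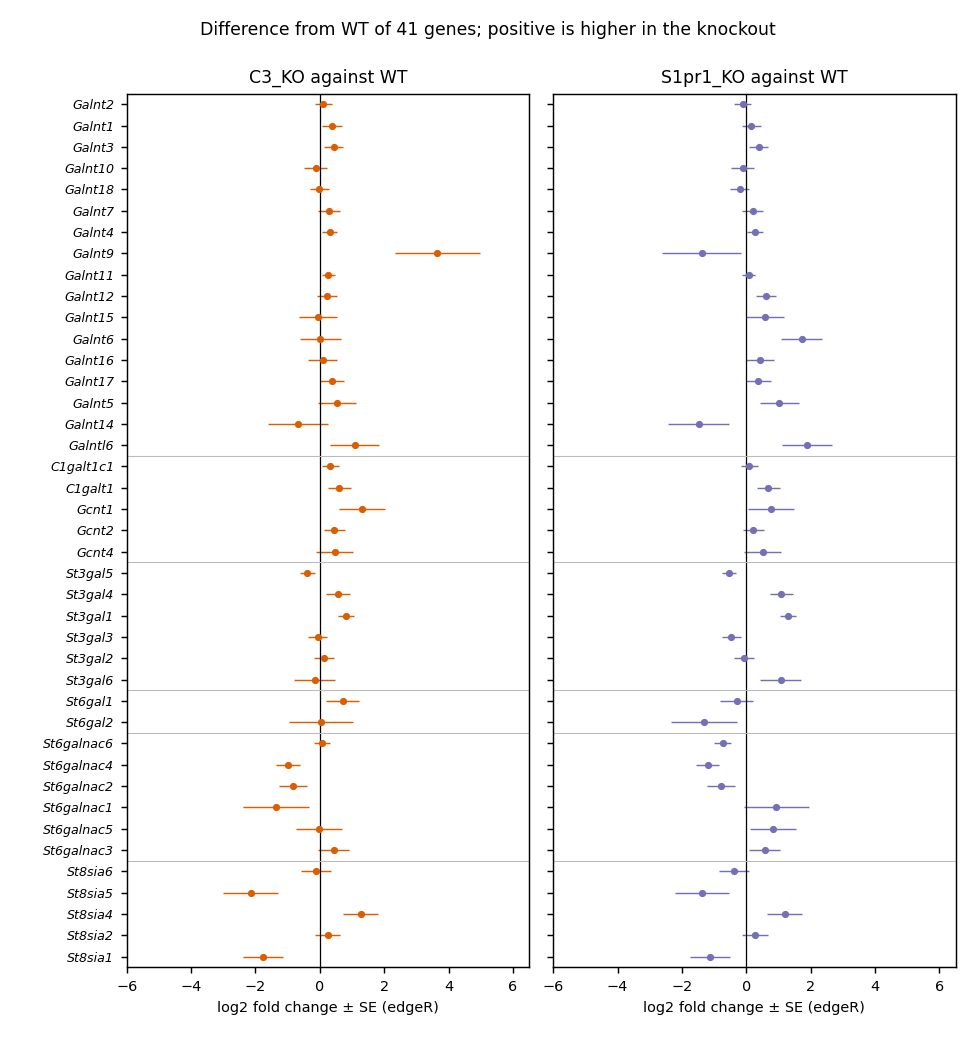
Log2 fold change against WT with its SE from edgeR for the 41 genes tested, C3_KO at left and S1pr1_KO at right, positive where the knockout was higher. St3gal1 at 0.82 and 1.29 has a short error bar, while Galnt9 at 3.65 in C3_KO has an SE of 1.32.

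The summed FPKM of the GalNAc transferases that begin chains overlapped between the genotypes and varied more among knockout tumours than among WT tumours. Their FPKM summed to 87.7, 140.5, 123 and 151 in C3_KO tumours and 94.6, 146, 86.5 and 138 in S1pr1_KO tumours, against 103.6, 84.2, 94.4 and 94.8 in WT tumours. On this scale, 3 of 4 tumours in C3_KO and 2 of 4 in S1pr1_KO lay above all WT tumours. The means were 125 ± 27.8 FPKM in C3_KO and 116 ± 29.9 FPKM in S1pr1_KO, against 94.3 ± 7.93 FPKM in WT (SD, n = 4 each). FPKM lack the library scaling factors used for CPM, which ranged from 0.868 to 1.3. The sums were not compared with that scaling, so these counts and spreads hold for FPKM only. Galnt2, Galnt1 and Galnt3 together made up 58.1 ± 8.61% of that sum in C3_KO and 58.7 ± 2.23% in S1pr1_KO, against 59.0 ± 3.21% in WT (SD, n = 4 each). Galnt2, a transferase of most tissues, had 90.3, 199, 149 and 109 CPM in C3_KO tumours and 87.4, 121, 142 and 125 CPM in S1pr1_KO tumours, against 161, 107, 130 and 114 CPM in WT tumours. Its highest and lowest tumours were both knockouts, and the 3 genotypes overlapped. Log2 fold changes of Galnt2 were 0.10 (SE 0.26) in C3_KO and -0.10 (SE 0.26) in S1pr1_KO (edgeR adjusted p = 0.933 and 0.87). Of the 17 tested, 13 had a positive log2 fold change in C3_KO against WT and 12 in S1pr1_KO against WT, with medians of 0.26 and 0.27, and 0 were called.

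Galnt9, a transferase known mainly from brain, departed from this in C3_KO tumours. It had 0.942, 103, 8.17 and 1.52 CPM in C3_KO tumours and 0.81, 0.808, 1.59 and 0.249 CPM in S1pr1_KO tumours, against 3.40, 3.97, 0.568 and 1.09 CPM in WT tumours. C3_KO replicate 2 was far above all others, C3_KO replicate 3 was next, and the remaining C3_KO tumours lay within the WT range. In C3_KO replicate 2 Galnt9 made up 21.8% of the summed GalNAc transferase FPKM, as the second most abundant of the family at 30.7 FPKM after 41.8 FPKM for Galnt2. Its log2 fold change of 3.65 (SE 1.32) in C3_KO against WT did not pass (edgeR adjusted p = 0.765) and was 0.65 without C3_KO replicate 2. In S1pr1_KO against C3_KO it was -5.03 (SE 1.42; edgeR adjusted p = 1), and -2.03 without C3_KO replicate 2. Of the marker lists for other cells, summed fibroblast markers were narrowly highest in C3_KO replicate 2, at 4042 CPM against 1333 to 3886 CPM elsewhere. So were summed macrophage markers, at 521 CPM against 320 to 508 CPM. By the mean of log2 CPM over each list, C3_KO replicate 2 was not the highest. It had 7.29 for fibroblast markers, against 7.85 in S1pr1_KO replicate 1. For macrophage markers it had 5.41, against 5.60 in S1pr1_KO replicate 4. Both lists had no gene at 0, and their part in the Galnt9 level was not tested.

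Galnt6, a transferase of mammary and glandular epithelium, was chosen after its values were seen. It had 2.47, 2.76, 3.42 and 1.88 CPM in C3_KO tumours and 25.4, 2.78, 3.23 and 2.85 CPM in S1pr1_KO tumours, against 2.79, 2.62, 2.78 and 2.20 CPM in WT tumours. Only S1pr1_KO replicate 1, the library of the salivary transcripts, was high, and the other 11 tumours lay within 1.88 to 3.42 CPM. The log2 fold change was 1.72 (SE 0.65; edgeR adjusted p = 0.261) and 0.25 without that library. Galnt6os, an RNA on the opposite strand that overlaps Galnt6, stood at 2.63 CPM in the same library and 0.127 to 0.453 CPM elsewhere, and the sources do not say whether counting used strand.

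Among the rarer transferases, Galnt14 had 0.236, 0.00563, 0.196 and 0.0926 CPM in C3_KO tumours and 0.0819, 0.0757, 0.117 and 0.0297 CPM in S1pr1_KO tumours, against 0.574, 0.0511, 0.0581 and 0.171 CPM in WT tumours. The lowest tumour was C3_KO replicate 2 and the highest WT replicate 1, and the groups overlapped. Galntl6, whose groups did not overlap, had 0.228, 0.0757, 0.0527 and 0.119 CPM in S1pr1_KO tumours, against 0.0352, 0.0327, 0.0185 and 0.0399 CPM in WT tumours. These levels are at most 0.0271 FPKM in any tumour, and the log2 fold change of 1.89 (SE 0.78) did not pass (edgeR adjusted p = 0.285). The other transferases tested, Galnt1, Galnt3, Galnt4, Galnt5, Galnt7, Galnt10, Galnt11, Galnt12, Galnt15, Galnt16, Galnt17 and Galnt18, had log2 fold changes between -0.13 and 0.53 in C3_KO and between -0.21 and 1.03 in S1pr1_KO against WT. The gene of Galnt4 lies within that of Poc1b on the same strand, so reads could be split between them, and Poc1b was 13.1 to 19.9 CPM in the 12 tumours.

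**Figure D3:**
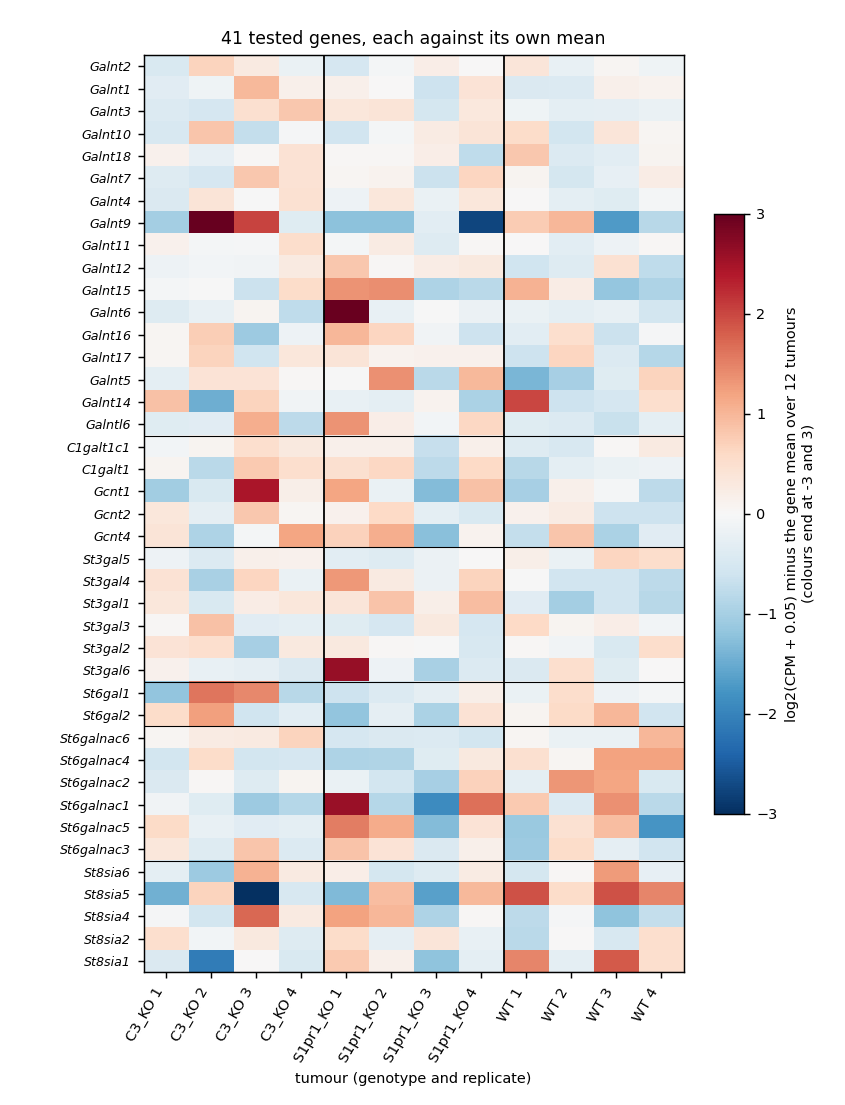
Log2(CPM + 0.05) of the 41 genes tested in each of the 12 tumours, minus the mean of the gene, with C3_KO at left, then S1pr1_KO and WT (colours end at -3 and 3). The strongest colours are single tumours, such as Galnt9 in C3_KO replicate 2 and Galnt6 and St3gal6 in S1pr1_KO replicate 1.

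The core 1 and core 2 genes had positive log2 fold changes in both knockouts, 5 of 5 tested in each, with medians of 0.46 in C3_KO and 0.51 in S1pr1_KO against WT, and 0 were called. These signs rest in part on single tumours: without the 3 libraries with many milk or salivary transcripts, S1pr1_KO against WT gave -0.049 for C1galt1c1 and -0.25 for Gcnt1. C1galt1c1 had 13.2, 14.8, 19.8 and 17.3 CPM in C3_KO tumours and 15.7, 15.6, 8.60 and 15.6 CPM in S1pr1_KO tumours, against 10.6, 10.1, 14.4 and 16.9 CPM in WT tumours. S1pr1_KO replicate 3 was the lowest tumour of all, and the genotypes overlapped. The enzyme it serves, C1galt1, was chosen after its values were seen. C1galt1 had 35.2, 19.0, 57.0 and 47.1 CPM in C3_KO tumours and 46.4, 51.5, 19.4 and 50.3 CPM in S1pr1_KO tumours, against 18.6, 27.0, 28.7 and 29.9 CPM in WT tumours. In each knockout, 3 tumours were above all WT tumours and 1, C3_KO replicate 2 or S1pr1_KO replicate 3, lay within the WT range. Its log2 fold changes of 0.60 (SE 0.35) in C3_KO and 0.68 (SE 0.35) in S1pr1_KO did not pass (edgeR adjusted p = 0.765 and 0.366).

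Gcnt1, the core 2 branching enzyme of leukocytes and many epithelia, was also chosen after its values were seen. It had 5.71, 8.62, 65.4 and 13.3 CPM in C3_KO tumours and 27.1, 10.4, 4.76 and 21.8 CPM in S1pr1_KO tumours, against 5.91, 13.2, 11.4 and 6.89 CPM in WT tumours. C3_KO replicate 3, the library rich in milk transcripts, was the highest, S1pr1_KO replicates 1 and 4 came next, and the groups overlapped. Its log2 fold change of 1.32 (SE 0.72) in C3_KO against WT (edgeR adjusted p = 0.765) was -0.02 without C3_KO replicate 3. All 7 milk protein genes had positive log2 fold changes in C3_KO against WT with none at 0 in any library, skin keratinocyte markers summed to 536 CPM and neutrophil markers to 101 CPM in that tumour, and their part in the Gcnt1 level was not tested. Gcnt2, which makes the I-branch of lactosamine chains, lay at 8.00 to 16.9 CPM in C3_KO and 7.02 to 14.6 CPM in S1pr1_KO, against 6.26 to 11.5 CPM in WT. Gcnt4, another core 2 enzyme, lay at 1.35 to 5.98 CPM in C3_KO and 1.06 to 5.64 CPM in S1pr1_KO, against 1.33 to 4.68 CPM in WT, and both overlapped.

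The St3gal genes, which add alpha-2,3 sialic acid to galactose, had positive log2 fold changes in 3 of 6 for each knockout against WT, with medians of 0.03 in C3_KO and 0.50 in S1pr1_KO, and 0 were called. St3gal1, which places sialic acid in alpha-2,3 linkage on the galactose of core 1 and so stops its growth, had 62.8, 36.0, 57.9 and 62.9 CPM in C3_KO tumours and 63.4, 90.1, 56.1 and 94.2 CPM in S1pr1_KO tumours, against 39.1, 24.6, 33.3 and 27.7 CPM in WT tumours. Every S1pr1_KO tumour lay above every WT tumour, and 3 of 4 C3_KO tumours did, with C3_KO replicate 2 inside the WT range. The means of 4 tumours each were 54.9 ± 12.8 (SD) CPM in C3_KO and 75.9 ± 19.0 CPM in S1pr1_KO, while WT had 31.2 ± 6.40 CPM. In S1pr1_KO against WT this was 2.44-fold, or 1.29 (SE 0.25) on the log2 scale (edgeR adjusted p = 0.106), and in C3_KO against WT 1.76-fold, or 0.82 (SE 0.25; edgeR adjusted p = 0.765). The S1pr1_KO value passed with DESeq2 (adjusted p = 0.00281), with limma-voom (0.00204) and in edgeR without S1pr1_KO replicate 3 (adjusted p = 0.037). Those 3 settings called 901, 7828 and 1330 genes over the whole table, so calls rose for genes at large. Over the 22 alternatives the adjusted p was 0.00204 to 0.999, and the log2 fold change stayed between 1.16 and 1.47. It was 1.29 without the 3 libraries with many milk or salivary transcripts (C3_KO replicate 3 and S1pr1_KO replicates 1 and 4) and 1.27 without S1pr1_KO replicates 1 and 2, those with many B cell and adipocyte transcripts. Blood endothelial markers, 7 of 7 positive and none at 0, summed to 126 to 237 CPM in S1pr1_KO and 59.7 to 126 CPM in WT, and their part in the St3gal1 level was not tested.

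St3gal4, which caps lactosamine chains and takes part in making selectin ligands, had 31.9, 12.2, 37.0 and 20.7 CPM in C3_KO tumours and 59.1, 28.6, 21.2 and 38.1 CPM in S1pr1_KO tumours, against 23.5, 15.9, 15.9 and 13.7 CPM in WT tumours. Of the S1pr1_KO tumours, 3 lay above all WT tumours and replicate 3 lay inside their range. The log2 fold change was 1.09 (SE 0.37) in S1pr1_KO and 0.56 (SE 0.37) in C3_KO against WT (edgeR adjusted p = 0.241 and 0.765). The value in S1pr1_KO was 0.59 without the milk-rich and salivary-rich libraries, which include its highest tumours, S1pr1_KO replicates 1 and 4, and 0.78 without S1pr1_KO replicates 1 and 2. A transcript on the opposite strand, 4930581F22Rik, overlaps St3gal4 and reached 16.3 CPM, so part of these counts is uncertain.

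St3gal5, the GM3 synthase that opens ganglioside synthesis and the highest St3gal gene by mean FPKM, had negative log2 fold changes in both knockouts. It had 21.5, 18.0, 26.4 and 26.1 CPM in C3_KO tumours and 19.1, 18.2, 21.2 and 23.9 CPM in S1pr1_KO tumours, against 27.1, 20.8, 37.6 and 34.6 CPM in WT tumours. The WT tumours held the 3 highest values, and WT replicate 2 lay inside the range of both knockouts. Log2 fold changes were -0.38 (SE 0.22) in C3_KO and -0.54 (SE 0.22) in S1pr1_KO against WT (edgeR adjusted p = 0.765 and 0.28).

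St3gal6, a further enzyme of selectin ligands, was chosen after its values were seen. It had 12.4, 9.61, 9.22 and 8.29 CPM in C3_KO tumours and 68.3, 10.1, 5.69 and 8.40 CPM in S1pr1_KO tumours, against 8.28, 15.9, 8.70 and 11.4 CPM in WT tumours. As with Galnt6, S1pr1_KO replicate 1 alone was high. The log2 fold change was 1.06 (SE 0.64; edgeR adjusted p = 0.43), and -0.40 without that library. The opposite-strand gene Dcbld2 overlaps St3gal6. St3gal2 and St3gal3, which act on gangliosides and core 1 and on lactosamine chains, had log2 fold changes of 0.12 and -0.07 in C3_KO and -0.07 and -0.46 in S1pr1_KO against WT, and their groups overlapped.

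**Figure D4:**
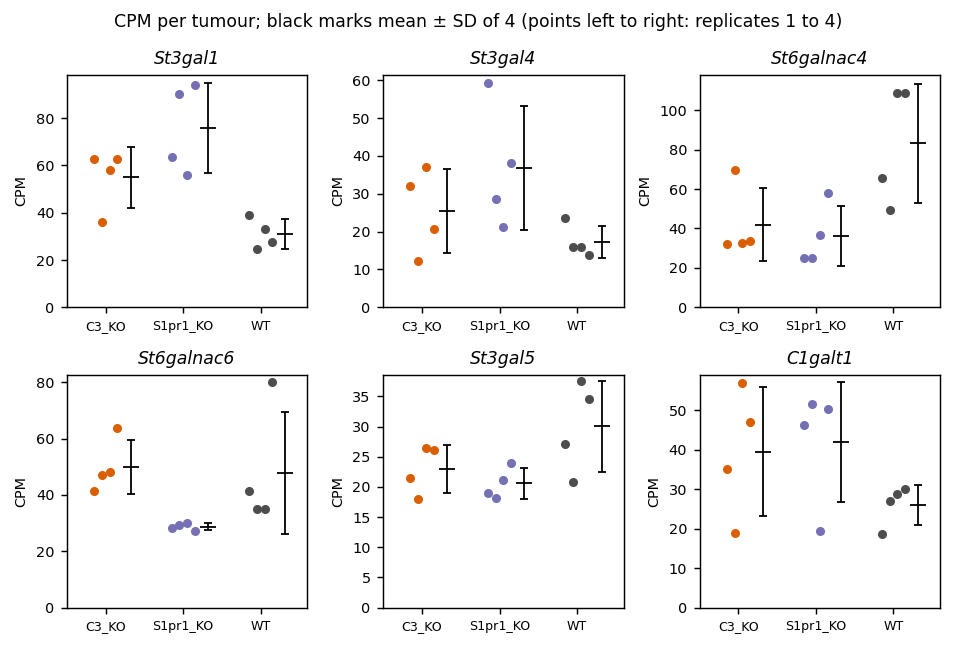
CPM of St3gal1, St3gal4, St6galnac4, St6galnac6, St3gal5 and C1galt1 in each tumour of C3_KO, S1pr1_KO and WT, with black marks for the mean ± SD of 4 tumours. All 4 S1pr1_KO tumours lie above all 4 WT tumours for St3gal1 and below them for St6galnac6.

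The St6galnac genes, which add alpha-2,6 sialic acid to the GalNAc of O-glycans or of gangliosides, had negative log2 fold changes in 4 of 6 for C3_KO and 3 of 6 for S1pr1_KO against WT, with medians of -0.42 and -0.08, and 0 were called. St6galnac4, which adds a further sialic acid to core 1 already capped by St3gal1 or its relatives, had 32.1, 69.6, 32.4 and 33.6 CPM in C3_KO tumours and 25.0, 25.3, 36.7 and 57.8 CPM in S1pr1_KO tumours, against 65.7, 49.5, 109 and 109 CPM in WT tumours. In each knockout, 3 of 4 tumours lay below all WT tumours, with C3_KO replicate 2 and S1pr1_KO replicate 4 inside the WT range. Log2 fold changes were -0.99 (SE 0.37) in C3_KO and -1.20 (SE 0.37) in S1pr1_KO against WT (edgeR adjusted p = 0.765 and 0.232). The value in S1pr1_KO passed with limma-voom alone (adjusted p = 0.00726), and over the 22 alternatives its adjusted p was 0.00726 to 0.999 and its log2 fold change -1.52 to -0.82.

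St6galnac6, an enzyme of ganglioside sialylation, had 41.4, 47.1, 48.1 and 63.7 CPM in C3_KO tumours and 28.3, 29.3, 29.97 and 27.2 CPM in S1pr1_KO tumours, against 41.3, 35.0, 35.0 and 79.9 CPM in WT tumours. The S1pr1_KO tumours lay close together and below all 8 others, while WT replicate 4 was the highest of all. Log2 fold changes were -0.74 (SE 0.26) in S1pr1_KO against WT (edgeR adjusted p = 0.248) and -0.80 (SE 0.26) in S1pr1_KO against C3_KO (edgeR adjusted p = 1). Without WT replicate 4 the first was -0.32. On the FPKM scale, which has no TMM (trimmed mean of M values) scaling, the groups overlapped, with 5.19, 7.94, 5.59 and 6.60 FPKM in S1pr1_KO against 7.44, 7.35, 6.64 and 15.8 FPKM in WT. In C3_KO against WT the log2 fold change was 0.07 (SE 0.26; edgeR adjusted p = 0.956).

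St6galnac4 and St6galnac6 are neighbours on mouse chromosome 2, on the same strand with 10 bases between them in GENCODE M21 (build GRCm38), and their counts did not run in parallel. The FPKM ratio of St6galnac4 to St6galnac6 was 0.576, 1.10, 0.501 and 0.391 in C3_KO tumours and 0.657, 0.640, 0.909 and 1.58 in S1pr1_KO tumours, against 1.18, 1.05, 2.31 and 1.01 in WT tumours. It was above 1 in 1 of 4 C3_KO, 1 of 4 S1pr1_KO and 4 of 4 WT tumours. The start region of St6galnac4, shown because its level parted most knockout tumours from WT, is the 250 bases before its RefSeq start at chr2:32586828-32587077, plus strand. The sequence is from RefSeq on GRCm38.p6, an older build than the GRCm39 named for the counts, and capitals mark the GC box GGGCGG, searched on both strands.
St6galnac4: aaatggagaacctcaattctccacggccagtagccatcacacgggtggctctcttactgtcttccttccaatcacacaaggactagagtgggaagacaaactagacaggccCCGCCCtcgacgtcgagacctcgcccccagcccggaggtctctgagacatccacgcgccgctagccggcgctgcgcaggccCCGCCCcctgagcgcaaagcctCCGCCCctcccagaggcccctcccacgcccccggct

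This window holds 3 GC boxes, a motif known to bind Sp factors. Of 32851 mouse start windows of the same length, 32.7% hold at least 1, as do 20 of the 44 windows of the 31 genes that were matched. No RefSeq window was matched for St3gal1. Only the St6galnac4 window is shown for this pair, since the window of St6galnac6 overlaps an exon of St6galnac4.

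St6galnac2, which acts on core 1, lay at 27.5 to 39.3 CPM in C3_KO and 18.4 to 59.4 CPM in S1pr1_KO, against 26.7 to 92.7 CPM in WT, with log2 fold changes of -0.82 (SE 0.44) and -0.79 (SE 0.43) and groups that overlapped. St6galnac1, the sialyl-Tn synthase, had 0.161, 0.127, 0.057 and 0.0754 CPM in C3_KO tumours and 1.32, 0.0757, 0.0117 and 0.673 CPM in S1pr1_KO tumours, against 0.345, 0.123, 0.539 and 0.0797 CPM in WT tumours. Its highest values were in S1pr1_KO replicates 1 and 4, the same libraries that were rich in salivary transcripts, and the groups overlapped. The log2 fold change was 0.94 (SE 1.01; edgeR adjusted p = 0.674) in S1pr1_KO against WT, and -2.57 without C3_KO replicate 3 and S1pr1_KO replicates 1 and 4, the libraries with many milk or salivary transcripts. In S1pr1_KO against WT, 8 of 9 salivary markers were positive, and their part in the levels of St6galnac1, Galnt6 and St3gal6 was not tested. St6galnac3 and St6galnac5 were at most 1.27 and 1.42 CPM in any tumour, and St6galnac5 overlaps Pigk on the opposite strand.

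St3gal1 and St6galnac4 act one after the other on core 1, and within a tumour their ratio does not depend on how libraries are scaled. The FPKM ratio of St3gal1 to St6galnac4 was 1.85, 0.490, 1.69 and 1.77 in C3_KO tumours and 2.40, 3.38, 1.45 and 1.54 in S1pr1_KO tumours, against 0.563, 0.470, 0.290 and 0.241 in WT tumours. It was above 1 in 3 of 4 C3_KO, 4 of 4 S1pr1_KO and 0 of 4 WT tumours, with C3_KO replicate 2 alone among the knockouts inside the WT range. The pair was chosen after its values were seen, so no test is given. St3gal1 made up 10.9 ± 3.53% of the summed sialyltransferase FPKM in C3_KO and 15.9 ± 4.25% in S1pr1_KO, against 5.89 ± 1.42% in WT (SD, n = 4 each). St6galnac4 made up 8.42 ± 2.87% in C3_KO and 7.97 ± 2.98% in S1pr1_KO, against 16.2 ± 4.61% in WT (SD, n = 4 each). The sum itself overlapped between genotypes, at 76.9 ± 6.14 FPKM in C3_KO and 74.6 ± 16.6 FPKM in S1pr1_KO, against 72.8 ± 7.48 FPKM in WT (SD, n = 4 each). The ratio of St3gal1 to St3gal5 was above 1 in 1 of 4 C3_KO, 4 of 4 S1pr1_KO and 0 of 4 WT tumours, at 0.764 to 1.12, 1.01 to 1.89 and 0.307 to 0.551. The ratio of St3gal1 to Gcnt1, which both act on core 1, did not part the genotypes, at 0.745 to 9.24 in C3_KO and 1.97 to 9.90 in S1pr1_KO, against 1.57 to 5.56 in WT.

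St6gal1, which caps N-glycans with alpha-2,6 sialic acid, varied most within C3_KO. It had 14.8, 102, 91.9 and 19.0 CPM in C3_KO tumours and 21.8, 25.2, 28.1 and 38.1 CPM in S1pr1_KO tumours, against 29.3, 48.2, 30.2 and 32.1 CPM in WT tumours. C3_KO replicates 2 and 3 were above all other tumours, and C3_KO replicates 1 and 4 were below all of them. The mean of 56.9 ± 46.4 CPM in C3_KO against 34.9 ± 8.90 CPM in WT (SD, n = 4 each) therefore describes no single tumour, and the log2 fold change of 0.70 (SE 0.52) did not pass (edgeR adjusted p = 0.766), with 0.26 without C3_KO replicate 2, 0.37 without C3_KO replicate 3 and 1.02 without C3_KO replicate 1. Its relative St6gal2, known mainly from brain, had 0.115, 0.217, 0.0253 and 0.0411 CPM in C3_KO tumours and 0, 0.0432, 0.00878 and 0.104 CPM in S1pr1_KO tumours, against 0.0705, 0.118, 0.174 and 0.0266 CPM in WT tumours. The value of 0 was in S1pr1_KO replicate 1, and the groups overlapped.

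The St8sia genes, which join sialic acids to each other, were the rarest family, with positive log2 fold changes in 2 of 5 tested for each knockout against WT and medians of -0.13 in C3_KO and -0.40 in S1pr1_KO. St8sia6, which acts on O-glycans and was the highest of the family, had 9.02, 5.19, 22.9 and 13.4 CPM in C3_KO tumours and 12.7, 7.69, 8.40 and 13.2 CPM in S1pr1_KO tumours, against 7.60, 11.4, 26.8 and 9.35 CPM in WT tumours. The groups overlapped. The log2 fold changes were -0.13 (SE 0.47) in C3_KO and -0.40 (SE 0.47) in S1pr1_KO against WT (edgeR adjusted p = 0.953 and 0.703).

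St8sia1 and St8sia5, which build the gangliosides with several sialic acids, had negative log2 fold changes against WT in both knockouts. St8sia1, the GD3 synthase, had 0.506, 0.124, 0.703 and 0.490 CPM in C3_KO tumours and 1.24, 0.784, 0.272 and 0.561 CPM in S1pr1_KO tumours, against 2.01, 0.560, 2.61 and 1.01 CPM in WT tumours. WT replicate 2 lay inside the range of both knockouts, and the other WT tumours were above all C3_KO tumours. WT replicate 4, at 1.01 CPM, also lay inside the S1pr1_KO range. St8sia5 had 0.486, 2.25, 0.076 and 0.994 CPM in C3_KO tumours and 0.528, 2.71, 0.415 and 2.79 CPM in S1pr1_KO tumours, against 5.41, 2.07, 5.41 and 3.95 CPM in WT tumours. For St8sia5, WT replicate 2 alone among the WT tumours lay within the knockout range. Log2 fold changes in C3_KO against WT were -1.76 (SE 0.63) for St8sia1 and -2.15 (SE 0.86) for St8sia5 (edgeR adjusted p = 0.765 for both), and in S1pr1_KO against WT -1.12 (SE 0.62) and -1.38 (SE 0.84; edgeR adjusted p = 0.393 and 0.434). Schwann cell and nerve markers, a tissue rich in gangliosides, summed to 406 to 688 CPM in C3_KO and 397 to 858 CPM in S1pr1_KO, against 471 to 680 CPM in WT, and these ranges overlapped. WT replicate 2, which lay within the knockout range for St8sia1, St8sia5 and St3gal5, differed from the other WT tumours in markers of other cells. Its fibroblast markers summed to 3886 CPM against 1333 to 1699 CPM, its adipocyte markers to 70.7 CPM against 4.68 to 11.8 CPM and its skeletal muscle markers to 2485 CPM against 7.88 to 36.2 CPM. Without it, St8sia1 was -2.04 in C3_KO and -1.40 in S1pr1_KO and St8sia5 -2.37 and -1.61 on the log2 scale, and the part of these cells was not tested.

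St8sia4, a polysialyltransferase expressed in leukocytes, was chosen after its values were seen. It had 3.83, 2.65, 13.1 and 4.75 CPM in C3_KO tumours and 9.16, 7.87, 2.03 and 4.04 CPM in S1pr1_KO tumours, against 2.27, 3.81, 1.66 and 2.35 CPM in WT tumours. The 3 highest tumours were C3_KO replicate 3 and S1pr1_KO replicates 1 and 2. C3_KO replicate 3 had the most neutrophil markers and 1.51 CPM of B cell markers. It was also the highest in milk protein, skin keratinocyte and proliferation markers. S1pr1_KO replicates 1 and 2 had the most B cell markers and 9.54 and 8.06 CPM of neutrophil markers, within 6.25 to 16.2 CPM in WT. T cell markers summed to 8.02 CPM in C3_KO replicate 3 and to 48.0 and 20.4 CPM in S1pr1_KO replicates 1 and 2, against 9.97 to 19.3 CPM in WT. The part of all these cells in the St8sia4 level was not tested. The log2 fold change of St8sia4 was 1.27 (SE 0.55) in C3_KO and 1.20 (SE 0.55) in S1pr1_KO against WT (edgeR adjusted p = 0.765 and 0.32). It was 0.57 without C3_KO replicate 3 in the first and 0.94 without S1pr1_KO replicate 1 and 0.27 without S1pr1_KO replicates 1 and 2 in the second. The other polysialyltransferase, St8sia2, lay between 0.55 and 1.48 CPM in all tumours.

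Single tumours held many of the extremes. S1pr1_KO replicate 1 was the highest of the 12 tumours for 10 of the 41 genes, while it was the highest for 10.4% of all genes tested. C3_KO replicates 2 and 3 were the highest for 7 genes each, beside 8.98% and 12.6% of all genes. S1pr1_KO replicate 3 was the lowest for 10 of the 41, beside 12.5% of all genes, and the highest for 0. For 3 of the 41 genes, Galnt9, Galnt6 and St3gal6, the highest tumour was at least 3-fold above the second, or 7.32%, beside 2.49% of all genes.

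**Figure D5:**
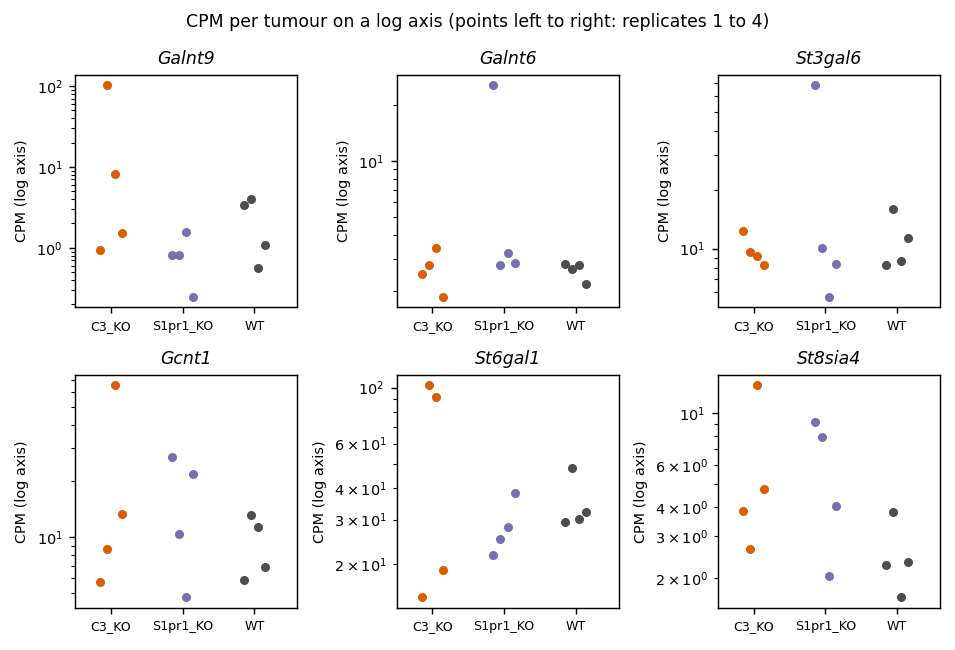
CPM on log axes of Galnt9, Galnt6, St3gal6, Gcnt1, St6gal1 and St8sia4 in each tumour of C3_KO, S1pr1_KO and WT. Galnt9 is high in C3_KO replicate 2, Gcnt1 in C3_KO replicate 3, St6gal1 in both, and Galnt6 and St3gal6 in S1pr1_KO replicate 1.

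The start windows of these genes are shown because each was high in 1 tumour while the genotype as a whole was not. Each is the 250 bases before a RefSeq start on GRCm38.p6, given in the direction of transcription. They are Galnt9 at chr5:110544105-110544354 and chr5:110603255-110603504 on the plus strand, Galnt6 at chr15:100729377-100729626, St3gal6 at chr16:58524254-58524503 and Gcnt1 at chr19:17372845-17373094 on the minus strand. Capitals mark the GC box GGGCGG and the TATA box TATAAA on either strand, and none overlap.
Galnt9 start at 110544105: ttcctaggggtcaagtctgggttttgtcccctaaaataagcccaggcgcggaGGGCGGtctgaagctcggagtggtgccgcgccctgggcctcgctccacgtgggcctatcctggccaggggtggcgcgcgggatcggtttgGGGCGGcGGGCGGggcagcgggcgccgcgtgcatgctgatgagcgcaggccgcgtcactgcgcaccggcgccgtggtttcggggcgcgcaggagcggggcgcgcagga
Galnt9 start at 110603255: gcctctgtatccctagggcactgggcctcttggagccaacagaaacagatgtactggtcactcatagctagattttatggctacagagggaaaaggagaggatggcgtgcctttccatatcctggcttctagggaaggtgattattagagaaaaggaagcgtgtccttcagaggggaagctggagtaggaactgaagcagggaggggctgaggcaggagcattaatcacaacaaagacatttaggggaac
Galnt6: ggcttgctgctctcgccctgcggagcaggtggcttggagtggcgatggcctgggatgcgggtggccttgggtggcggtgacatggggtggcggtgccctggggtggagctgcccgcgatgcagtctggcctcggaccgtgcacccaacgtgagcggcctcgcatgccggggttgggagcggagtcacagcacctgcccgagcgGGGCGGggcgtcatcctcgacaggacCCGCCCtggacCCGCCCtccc
St3gal6: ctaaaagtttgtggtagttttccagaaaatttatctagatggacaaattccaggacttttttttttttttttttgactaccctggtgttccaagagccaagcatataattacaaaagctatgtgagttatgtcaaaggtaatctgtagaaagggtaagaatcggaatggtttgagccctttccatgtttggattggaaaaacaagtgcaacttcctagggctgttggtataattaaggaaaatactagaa
Gcnt1: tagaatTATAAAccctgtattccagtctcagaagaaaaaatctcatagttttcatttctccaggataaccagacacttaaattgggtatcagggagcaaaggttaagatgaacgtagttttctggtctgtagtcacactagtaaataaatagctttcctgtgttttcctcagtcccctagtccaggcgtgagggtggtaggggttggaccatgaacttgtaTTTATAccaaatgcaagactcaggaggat

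One Galnt9 window and the Galnt6 window hold 3 GC boxes each, and the other 3 windows shown hold none. RefSeq lists further starts that are not shown, 1 each for Galnt6 and St3gal6 and 2 for Gcnt1. The further window of St3gal6, which overlaps an exon of that gene, holds 4 GC boxes, and those of Galnt6 and Gcnt1 hold 0. The Gcnt1 window shown holds 2 TATA boxes, a motif in 12.4% of all start windows and in 2 of the 44 windows of the group. The motif TTCNNNGAA, known to bind STAT factors, is in 7.02% of all windows and in 3 of the 44, of Galntl6, Gcnt2 and Gcnt4, and in none of those shown. The deposited counts are per gene and do not tell which start was used.

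Genes that supply or use these enzymes were read from lists, and none of their members was called by edgeR in either comparison with WT. The 5 genes of CMP-sialic acid synthesis and transport, which provide the donor sugar, had negative log2 fold changes in 5 of 5 for both knockouts, with medians of -0.37 in C3_KO and -0.39 in S1pr1_KO. Their smallest p was for Nans, the sialic acid synthase, at 96.1, 86.6, 194 and 126 CPM in S1pr1_KO tumours, against 256, 102, 226 and 235 CPM in WT tumours. WT replicate 2 lay inside the S1pr1_KO range, and the log2 fold change of -0.71 (SE 0.35) did not pass (edgeR adjusted p = 0.355). UDP-sugar genes had medians of 0.07 in C3_KO and -0.11 in S1pr1_KO, with the galactokinase Galk1 at a log2 fold change of -1.08 in C3_KO. Sialidase and sialate O-acetylation genes had medians of -0.18 and 0.23, with the lysosomal sialidase Neu1 at -0.36 in S1pr1_KO.

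Chain extension genes had medians of 0.37 in C3_KO and -0.17 in S1pr1_KO, and the core 1 extension enzyme B3gnt3 had 28.3, 60.3, 74.7 and 41.4 CPM in C3_KO tumours, against 43.8, 18.4, 18.4 and 24.5 CPM in WT tumours. WT replicate 1 lay within the C3_KO range and the other WT tumours below it (log2 fold change 0.96, SE 0.37; edgeR adjusted p = 0.765). Fucosyltransferases had medians of -0.15 and 0.17, with Fut4, an enzyme of the Lewis x structure, at 1.06 in C3_KO. Sulfotransferases had medians of 0.12 and 0.15, and Gal3st2 stood at 22.0 CPM in S1pr1_KO replicate 1 and 0.062 to 0.628 CPM elsewhere. Ganglioside and globoside enzymes had medians of 0.41 and 0.30, and B3gnt5, the lactotriaosylceramide synthase, stood at 3.63 and 2.72 CPM in S1pr1_KO replicates 1 and 2 and at most 0.416 CPM elsewhere.

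Siglecs, the receptors that read sialic acid on leukocytes, had positive log2 fold changes in 9 of 9 genes for both knockouts, with medians of 0.66 in C3_KO and 1.36 in S1pr1_KO. Siglec1, the sialoadhesin of macrophages, had 10.1, 12.2, 3.96 and 9.22 CPM in S1pr1_KO tumours, against 1.87, 3.89, 1.20 and 1.31 CPM in WT tumours. The groups did not overlap, by a narrow margin between S1pr1_KO replicate 3 and WT replicate 2, and the log2 fold change of 2.10 (SE 0.50) did not pass (edgeR adjusted p = 0.189). Macrophage markers summed to 400 to 499 CPM in S1pr1_KO and 323 to 508 CPM in WT, with 4 of 7 positive and none at 0. The 9 Siglecs, Cd22 of B cells among them, summed to 62.2 and 55.7 CPM in S1pr1_KO replicates 1 and 2, the libraries with the most B cell markers, and to 7.13 to 24.2 CPM in the other 10. Against WT, B cell markers were positive in 8 of 8 in S1pr1_KO, with a median log2 fold change of 4.43, and T cell markers in 7 of 7, with 0.74. None of these markers was at 0, and their part in the Siglec levels was not tested. Selectins and their carriers had medians of 0.52 and 0.81. The carrier Glycam1 stood at 7916 CPM in C3_KO replicate 3, the library rich in milk transcripts, and at most 24.1 CPM elsewhere. Of the O-glycan carriers, 12 of 13 were in the table, with medians of 0.49 and 0.36, and Muc19, a mucin of salivary glands, stood at 7.01 CPM in S1pr1_KO replicate 4 and at most 0.149 CPM elsewhere.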

How the data were processed

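Total RNA of 12 tumours, 4 for each of 3 genotypes, was sequenced. Per the labels' protocols, tumours were stabilised in RNAlater, QIAzol was used for extraction, and Illumina libraries were made by a company. The authors deposited raw counts per gene as whole numbers for 56860 genes, and a table of FPKM values. Of 682320 FPKM values, 682317 matched counts divided by gene length and column total (relative tolerance 0.0001), so the FPKM table adds no measurement. Per the submitters' processing notes, StringTie and GRCm39 (mm39) were used, with no version or role given. Not given in the sources used here are the aligner, the counter and whether strand was used. Among counts from 1 to 50, 62.1% were even, a sign that mates of a pair may each be counted and that totals may overstate fragments. Column totals had a median of 361.6 M (M is 1000000 counts), and 0 sample columns were left unused.

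Genotypes came from the genotype label, and replicate numbers follow accession order and only name a tumour. Counts of the whole table were tested with edgeR 4.0.16 (R 4.3.3): edgeR's filter on low counts left 30660 genes, libraries were scaled by TMM (factors 0.868 to 1.3), and a robust quasi-likelihood F-test was fitted to all 12 libraries, with 9 residual degrees of freedom and a common biological coefficient of variation of 0.564. Adjustment was by Benjamini-Hochberg over the 30660 genes, and genes were called under an adjusted p of 0.05. The fit was tested on simulated data with large known changes. Recovery of changed genes was required only at a spread far below that of these data. At the spread of these data only the sign of the changes was checked, so this does not measure power here. CPM are scaled by TMM and FPKM are as deposited. Alternatives were DESeq2 1.42.0, limma 3.58.1 (voom with quality weights, and log2(FPKM + 1) or log2(FPKM + 0.1)), other scaling and filters, and libraries left out.

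The members and gene lists were chosen with earlier results of these data known. Values in every tumour are given for the highest member of each family by FPKM, the 4 of smallest p in each comparison with WT, and the 6 of widest range. Other members are named as chosen after their values were seen, or by ranges. Start windows were read from RefSeq on GRCm38.p6 by symbol, and 31 of 45 members matched, with 44 windows. Gene neighbours came from GENCODE M21.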

Additional observations from a re-analysis of the deposited data

Results flagged for a closer look

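In groups of 4 tumours, 1 tumour was set apart where its gap to the nearest of the others, over the whole range of the group, exceeded Dixon's critical value at the 95% level. For the 20 members named, this held in 9 of 60 groups, but many of them were named for a wide range or after their values were seen, so this count is no measure of how often it occurs. Over the 41 members tested it held in 15 of 123 groups, or 12.2%, beside 8.99% of groups over all genes tested. Chance flags about 1 in 20 groups only where values are normally distributed, which was not checked for CPM. In C3_KO, Galnt9 was 103 CPM in replicate 2 and 0.942 to 8.17 CPM in the other 3 tumours, St6galnac4 was 69.6 CPM in replicate 2 and 32.1 to 33.6 CPM in the others, and Gcnt1 was 65.4 CPM in replicate 3 and 5.71 to 13.3 CPM in the others. In S1pr1_KO, replicate 1 stood above the others with Galnt6 at 25.4 CPM against 2.78 to 3.23 CPM, and with St3gal6 at 68.3 CPM against 5.69 to 10.1 CPM. S1pr1_KO replicate 3 stood below the others with C1galt1c1 at 8.60 CPM against 15.6 to 15.7 CPM, and with its client C1galt1 at 19.4 CPM against 46.4 to 51.5 CPM. In WT, St6galnac6 was 79.9 CPM in replicate 4 and 35.0 to 41.3 CPM in the others, and St6gal1 was 48.2 CPM in replicate 2 and 29.3 to 32.1 CPM in the others.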

How the results depend on the processing

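The median log2 fold change of the 41 genes in C3_KO against WT was 0.23, with 0.11 to 0.33 on leaving out single tumours and 0.13 without C3_KO replicate 3 and S1pr1_KO replicates 1 and 4, the 3 libraries with many milk or salivary transcripts. In S1pr1_KO against WT it was 0.21, with 0.16 to 0.37 on leaving out single tumours, 0.0485 without the 3 libraries and -0.080 without S1pr1_KO replicates 1 and 2 together, an alternative chosen after seeing the data. Members called as higher in S1pr1_KO against WT numbered 0 with edgeR, 1 with DESeq2, 5 with limma-voom and 0 to 1 on leaving out single tumours, and members called as lower 3 with limma-voom. Over all genes, calls in that comparison numbered 901 with DESeq2, 7828 with limma-voom and 1330 in edgeR without S1pr1_KO replicate 3. In S1pr1_KO against C3_KO, DESeq2 called 1 member as lower, beside 121 genes called over all genes. The cause was not tested.

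Of 1299 alternative values of single genes, 62 turned in sign. In C3_KO against WT, leaving out single tumours gave -1.12 to 0.51 for Galnt14, -0.14 to 0.25 for Galnt2, -0.14 to 0.15 for Galnt6, -0.019 to 1.64 for Gcnt1, -0.29 to 0.060 for St3gal6, -0.68 to 0.47 for St6gal2, -0.073 to 0.47 for St6galnac6 and -0.59 to 0.41 for St8sia6. There limma-voom gave -0.038 for Galnt2, -0.039 for Galnt6, -0.12 for St6gal1 and -0.0052 for St6galnac6, log2(FPKM + 1) gave 0.0041 for St8sia6, and Galnt6 was -0.11 without the 3 libraries. In S1pr1_KO against WT, leaving out single tumours gave -0.015 to 0.31 for C1galt1c1, -0.18 to 0.078 for Galnt2, -0.40 to 1.42 for St3gal6, -0.043 to 1.51 for St6galnac1 and -0.60 to 0.15 for St8sia6. Without the 3 libraries, C1galt1c1 was -0.049, Galnt2 0.10, Gcnt1 -0.25, St3gal6 -0.43 and St6galnac1 -2.57. Without S1pr1_KO replicates 1 and 2, C1galt1c1 was -0.11, Galnt2 0.065 and St3gal6 -0.65, and the FPKM scales gave 0.057 and 0.058 for Galnt2. In S1pr1_KO against C3_KO, leaving out single tumours gave -0.15 to 0.33 for C1galt1, -0.36 to 0.032 for Galnt2, -0.90 to 0.79 for Gcnt1, -0.26 to 1.56 for St3gal6, -0.53 to 0.15 for St6galnac4, -0.37 to 0.62 for St8sia4 and -0.52 to 0.19 for St8sia6. Without the 3 libraries, Galnt2 was 0.015, St3gal6 -0.32, St6galnac1 -1.43 and St8sia4 0.43, and without S1pr1_KO replicates 1 and 2, C1galt1 was -0.18, St3gal6 -0.49, St6galnac4 0.17 and St8sia1 -0.13. Limma-voom gave 0.24 for Gcnt1 and 0.34 for St8sia4, and the FPKM scales 0.0097 and 0.029 for St8sia4.

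No paired analysis was possible because the labels give no shared replicate numbers. The 4 tumours a genotype and the common biological coefficient of variation of 0.564 limit the precision, and members near 0 carry few counts.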
